A study of Mus musculus with 16 samples.

Results

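The liver of male C57BL/6 mice fed a high-fat diet without interruption was compared with the liver of mice fed chow. The diet groups were set up with mice bought at 7 weeks of age. Chow supplied 11% of energy as fat and the high-fat diet 58%, and each was given for 16 weeks to a group of 6 mice. Both groups were the same sex and strain, carried no stated mutation or drug, and were fasted overnight before the liver was taken. Each group is represented by 4 RNA sequencing libraries, so 8 of the 16 libraries of the series were compared, and the other 8 came from 2 regimens that alternated the high-fat diet with chow or with a ketogenic diet every 2 weeks. Of 22612 genes listed, the 10960 that had a TPM (a length-scaled share of all transcripts, in parts per 1000000) of at least 1 in at least 4 of these 8 libraries were tested. The diets came from different suppliers, so a difference in another ingredient cannot be told apart from the difference in fat.

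The liver takes up fat and cholesterol from food, makes both itself, and exports them in lipoprotein particles. Cholesterol is made from acetyl-CoA through mevalonate, squalene and lanosterol, and the genes of this route are switched on together by the transcription factor SREBP-2 when membranes of the endoplasmic reticulum are short of sterol. Surplus cholesterol leaves the liver in bile or as bile acids. Hepatocytes also clear foreign compounds, by oxidation through cytochrome P450 enzymes and by conjugation through glutathione transferases, sulfotransferases and glucuronosyltransferases.

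TPM sums to the same total in each library, so an increase in one abundant gene pushes the values of the rest down, and the sequencing depth behind a value is unknown. Between 10575 and 11375 genes reached 1 TPM per library. The 20 highest genes held 33.4% ± 4.17 (SD, n = 4) of the chow TPM and 32.0% ± 2.23 of the high-fat TPM, and the mitochondrially encoded genes 13.4% ± 3.63 and 9.89% ± 1.41. The exact two-sided permutation test gave p = 0.629 for the first share and p = 0.114 for the second (adjusted over 3 measures, p = 0.886 and p = 0.343). The smallest p that 4 against 4 allows is 0.0286, so a difference can be missed at this size. Without chow replicate 1 the mitochondrial share differed by -4.54 percentage points (high-fat minus chow), with an exact permutation p = 0.0286 before adjustment, against -3.47 with all libraries. Chow replicate 3 stood highest for the mitochondrial share, at 18.4%. The summed TPM of 21 major urinary protein genes was 39054 in high-fat replicate 3 and 136508 to 150057 in the other high-fat libraries, against 48925 to 75973 in chow. The liver label held: 10 hepatocyte markers summed to 87874 to 103469 TPM in chow and 74717 to 119862 TPM in high-fat, and none passed the test. Whether the libraries of a group are separate animals is not in the labels, and p-values therefore reflect only how far these samples scatter, which may be technical.

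Values below are listed in the order of replicates 1 to 4, which does not pair chow with high-fat libraries. Fold changes are high-fat minus chow on log2(TPM + 1), which understates the change of genes near 1 TPM, and p-values come from limma with Benjamini-Hochberg adjustment over the 10960 genes. A gene is said to have risen, fallen or passed at an adjusted p below 0.05, and to be called where it also changed at least 2-fold.

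A small share of genes passed the test, led by a rise of cholesterol synthesis enzymes and Apoa4 and a fall of glutathione transferases and Cyp3a enzymes. With 4 libraries in each group this share does not measure how many genes differ. The limma fit gave 1274 genes an unadjusted p below 0.05, a limit that a share of about 0.05 would reach if no gene differed. When all 16 libraries were fitted, 399 passed. In all, 95 genes were called, 0.867% of those tested, 54 of them higher (0.493%) and 41 lower (0.374%). Without the fold limit 116 genes passed (1.06%), with 63 higher (0.575%) and 53 lower (0.484%). A list with 1 member past the test is read below as a result for that gene, not for the list. The lists were chosen with earlier results of these data known. The share of all genes beside a list is therefore a reference and not a test of the list. Genes whose 4 high-fat and 4 chow values did not overlap were more numerous, 901 or 8.22%, with 273 higher (2.49%) and 628 lower (5.73%). All 116 genes that passed were among them. The median fold change of all genes tested was -0.05. With libraries rescaled after removal of the mitochondrial genes and the 20 highest genes, 56 genes were called higher and 67 lower, so the higher share went from 56.8% to 45.5%. Median scaling gave 71 higher and 39 lower (64.5% higher) and quantile normalization 68 and 39 (63.6%). The number of calls ranged from 38 without chow replicate 4 to 127 without high-fat replicate 3, and it was 43 without high-fat replicate 2, 46 without high-fat replicate 4 and 62 without chow replicate 2. Of the 95 called genes, 33 passed in every one of the 8 fits that left out 1 library.

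**Figure D1:**
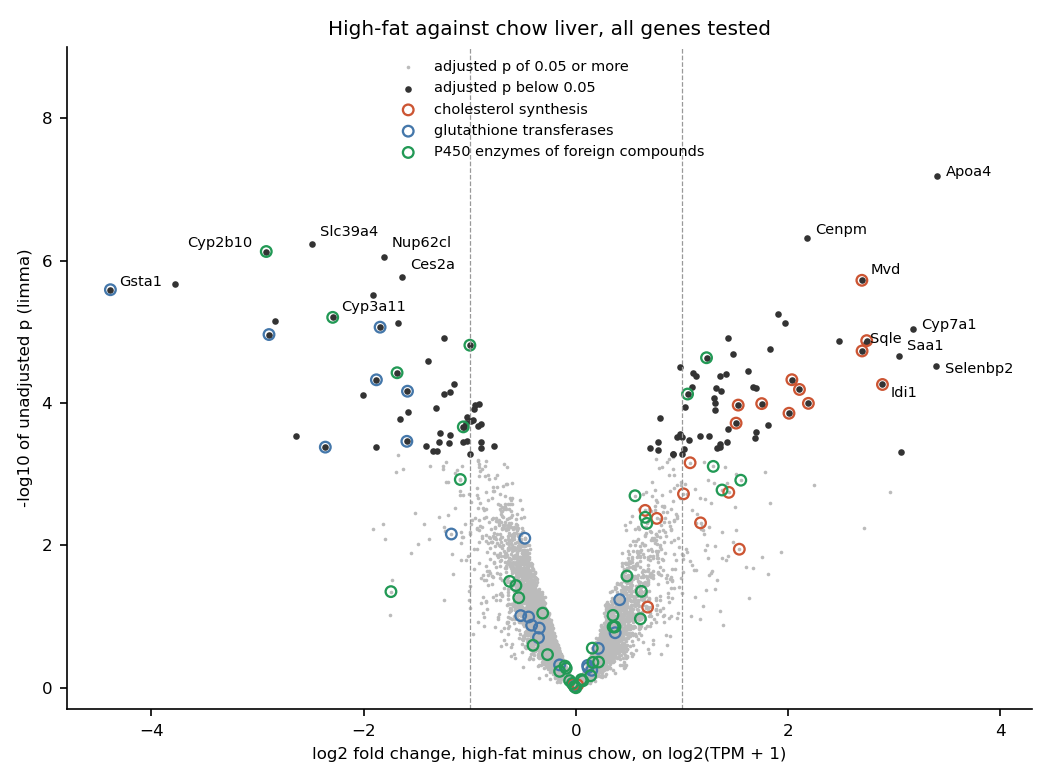
Each point is 1 of the 10960 genes tested, by its log2 fold change (high-fat minus chow, horizontal) and the -log10 of its unadjusted limma p (vertical). Black points passed at an adjusted p below 0.05, open rings mark 3 gene lists, and the dashed lines stand at 2-fold. Cholesterol synthesis rings lie mostly on the right, glutathione transferase rings that passed all lie on the left, and Apoa4 stands highest.

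Enzymes of cholesterol synthesis were the gene list with the most members past the test. Of 21 enzymes and partners, all tested, 11 rose and none fell, where 0.575% of all tested genes rose, and the median fold change was 1.53 on the log2 scale against -0.05 for all genes. In 16 of the 21 the high-fat and chow values did not overlap, against 2.49% of all genes in that direction. Their summed level was 684 to 1226 TPM in chow and 1771 to 2863 TPM in high-fat, with no overlap. The promoters of these genes are shown because the members rose together. Of the 16 members with a promoter in RefSeq (GRCm38.p6, the 250 bases before to 50 after the start of the gene), 14 held the letters CCAAT on either strand (87.5%), among them all 9 that rose and have an entry, against 41.1% of 27025 promoters and 43.1% of those of the genes tested. CCAAT is the motif bound by NF-Y, a factor known to act beside SREBP-2. The letters TCACNCCAC are the form of the sterol regulatory element known from Hmgcs1, so the match in the Hmgcs1 promoter follows from that choice. They were found in no other of the 16, and in 1.44% of all promoters. These matches describe the sequence and are not evidence of binding. Stretches of the promoters are printed 5′ to 3′ on the strand of the gene, with CCAAT or its reverse complement ATTGG in capitals and, in Hmgcs1, the sterol element TCACCCCAC in capitals as well. They lie at chr13:119690102-119690322 (plus strand) for Hmgcs1, chr8:122443433-122443494 (minus) for Mvd, chr13:8885549-8885605 (plus) for Idi1, chr8:64733617-64733750 (minus) for Msmo1, chr10:76531531-76531559 (plus) for Lss, chr5:4104710-4104738 (minus) for Cyp51 and chr7:143830117-143830181 (plus) for Dhcr7.
Hmgcs1: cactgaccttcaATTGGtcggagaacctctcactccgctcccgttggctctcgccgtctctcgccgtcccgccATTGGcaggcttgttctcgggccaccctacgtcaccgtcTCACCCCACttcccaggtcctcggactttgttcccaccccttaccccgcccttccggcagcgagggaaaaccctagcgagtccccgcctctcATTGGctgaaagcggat
Mvd: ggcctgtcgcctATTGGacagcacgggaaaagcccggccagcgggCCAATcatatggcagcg
Idi1: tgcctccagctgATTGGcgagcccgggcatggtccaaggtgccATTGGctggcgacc
Msmo1: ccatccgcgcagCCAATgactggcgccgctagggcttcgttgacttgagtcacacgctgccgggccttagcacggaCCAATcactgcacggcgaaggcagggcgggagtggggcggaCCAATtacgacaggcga
Lss: ggtgatgctctgATTGGccgagctcgcat
Cyp51: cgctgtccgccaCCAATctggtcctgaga
Dhcr7: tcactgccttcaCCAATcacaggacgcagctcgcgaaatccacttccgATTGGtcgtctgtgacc

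The early steps lead from acetyl-CoA to mevalonate. Hmgcs1, which makes HMG-CoA in the cytosol, was at 92.4, 93.97, 52.6 and 66.8 TPM in chow and 179.9, 369, 152 and 207 TPM in high-fat, with high-fat replicate 2 highest and no overlap (log2 fold change 1.51 with SE 0.28, adjusted p = 0.0288). Acat2, a thiolase at the start of the route, did not overlap, at 44.6 to 72.03 against 81.5 to 99.3 TPM, without passing (adjusted p = 0.142). Mevalonate is then phosphorylated and decarboxylated. Mvk, mevalonate kinase, was at 7.99, 12.1, 3.67 and 4.27 TPM in chow and 20.6, 27.7, 33.6 and 37.3 TPM in high-fat (log2 fold change 2.04 with SE 0.32, adjusted p = 0.013). Mvd, mevalonate diphosphate decarboxylase, was at 3.39, 5.01, 3.15 and 1.09 TPM in chow and 23.4, 30.1, 17.7 and 27.4 TPM in high-fat (log2 fold change 2.696 with SE 0.304, adjusted p = 0.00296). Both were low in chow and higher in every high-fat library. Idi1, the isomerase of the resulting isoprenoid unit, was at 19.1, 21.95, 4.98 and 6.43 TPM against 46.99, 131, 72.2 and 132 TPM (log2 fold change 2.89 with SE 0.46, adjusted p = 0.0144). Fdps, farnesyl diphosphate synthase, was at 74.5, 137, 48.01 and 42.5 TPM against 272, 459.7, 182 and 420.3 TPM (log2 fold change 2.19 with SE 0.38, adjusted p = 0.0194). Chow replicate 2 was the highest chow library in each of the 5 genes that rose.

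The later steps turn squalene into lanosterol and lanosterol into cholesterol. Sqle, squalene epoxidase, was at 6.99, 12.2, 2.89 and 3.36 TPM in chow and 29.7, 55.8, 29.6 and 58.4 TPM in high-fat (log2 fold change 2.698 with SE 0.38, adjusted p = 0.00784). Lss, which closes the rings to lanosterol, was at 6.24, 7.59, 3.33 and 4.497 TPM against 12.4, 16.5, 15.96 and 25.01 TPM (log2 fold change 1.53 with SE 0.26, adjusted p = 0.0198). Cyp51, the lanosterol demethylase, was at 27.97, 31.8, 11.1 and 12.9 TPM against 58.6, 119.8, 56.03 and 102 TPM (log2 fold change 2.01 with SE 0.36, adjusted p = 0.0232). In these 3 genes, chow replicates 1 and 2 were above chow replicates 3 and 4, and no chow value reached the lowest high-fat value. Msmo1, a methylsterol oxidase, was at 39.2, 49.01, 17.97 and 15.3 TPM against 136, 309, 138 and 208 TPM (log2 fold change 2.74 with SE 0.38, adjusted p = 0.00667). Nsdhl, the sterol dehydrogenase acting with it, was at 15.7, 25.2, 9.84 and 8.02 TPM against 63.9, 84.7, 35.8 and 71.1 TPM (log2 fold change 2.11 with SE 0.34, adjusted p = 0.0151). Dhcr7, which catalyses a last reduction to cholesterol, was at 20.4, 27.4, 9.37 and 10.6 TPM against 43.7, 55.3, 56.2 and 64.5 TPM (log2 fold change 1.75 with SE 0.301, adjusted p = 0.0194). No other enzyme of the list passed. Fdft1, squalene synthase, was at 31.3 to 59.8 against 65.5 to 109 TPM with no overlap (adjusted p = 0.0597). Tm7sf2 and Ebp had fold changes of -0.02 and 0.02. Mvd, Sqle and Msmo1 passed in every fit that left out 1 library. The other 8 calls each failed both without chow replicate 4 and with high-fat replicate 2 removed, at largest adjusted p from 0.0576 (Mvk) to 0.115 (Hmgcs1), so 3 of the 11 were left in either case, and 5 when high-fat replicate 4 was removed. With only the 4 libraries in which the 20 highest genes held under 33% of TPM (chow replicates 1 and 4, high-fat replicates 3 and 4), 4 of the 21 passed, and all 4 were higher.

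**Figure D2:**
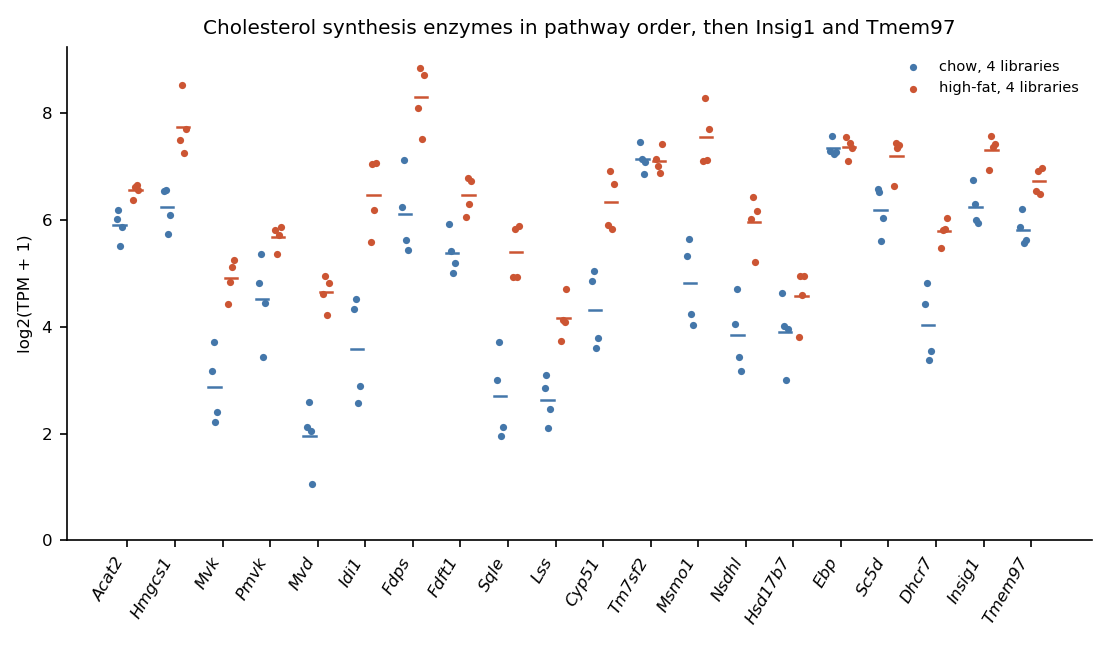
Points are single libraries (blue, 4 chow; orange, 4 high-fat) and short lines their means, as log2(TPM + 1) on the vertical axis, for cholesterol synthesis enzymes in pathway order and then Insig1 and Tmem97. The groups separate from Hmgcs1 to Dhcr7 in the 11 enzymes that rose, and lie on top of each other for Tm7sf2 and Ebp.

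Genes that sense, import or retain sterol gave 3 members past the test among 23 tested, all higher, with a list median of 0.21. Among all tested genes 0.575% rose. Insig1, which holds the SREBP escort protein in the endoplasmic reticulum, was at 106, 77.9, 63.3 and 60.3 TPM in chow and 121, 188, 163 and 170.3 TPM in high-fat (log2 fold change 1.07 with SE 0.21, adjusted p = 0.0402). Tmem97, a sterol-regulated membrane protein, was at 57.1, 72.6, 46.5 and 48.1 TPM against 91.98, 119, 89.1 and 125 TPM (log2 fold change 0.92 with SE 0.19, adjusted p = 0.04995). The groups did not overlap in either gene. Srebf2, which encodes SREBP-2, was at 9.51 to 16.998 against 15.5 to 24.8 TPM (adjusted p = 0.379). Among fatty acid synthesis genes 1 of 21 passed, Fasn, the fatty acid synthase, at 19.2, 22.95, 12.8 and 14.2 TPM in chow and 32.2, 46.1, 40.8 and 57.8 TPM in high-fat (log2 fold change 1.31 with SE 0.23, adjusted p = 0.0215). Insig1, Tmem97 and Fasn each failed the test in some fits with 1 library left out, at adjusted p up to 0.151 for Insig1, 0.195 for Tmem97 and 0.0996 for Fasn. None of the 3 passed without chow replicate 3, chow replicate 4, high-fat replicate 2 or high-fat replicate 4, and without chow replicate 2 only Fasn of the 3 did. Without chow replicate 1 or high-fat replicate 1 Tmem97 did not pass, and without high-fat replicate 3 Insig1 did not.

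The series concerns malonyl-CoA and protein malonylation, and no gene of that list passed (0 of 9, median -0.08). Acaca, acetyl-CoA carboxylase 1, which makes the malonyl-CoA used for fat synthesis, was at 13.96, 6.45, 5.89 and 6.36 TPM in chow and 6.54, 10.04, 15.2 and 15.5 TPM in high-fat, with overlap (log2 fold change 0.49 with SE 0.31, adjusted p = 0.612). Acacb, the isoform tied to mitochondria, was at 7.99 ± 4.55 TPM (SD, n = 4) in chow and 6.63 ± 2.103 TPM in high-fat (adjusted p = 0.962). Mlycd, which breaks malonyl-CoA down, was at 98.1 ± 12.5 against 82.7 ± 15.97 TPM (adjusted p = 0.678). Sirt5, the demalonylase, was at 11.8 ± 2.25 against 16.9 ± 2.87 TPM (adjusted p = 0.366). The other five members were the mitochondrial malonyl transferase Mcat, the malonyl-CoA synthetase Acsf3, the AMP kinase subunits Prkaa1 and Prkaa2, and the dicarboxylate carrier Slc25a10, with fold changes of 0.199, 0.299, -0.18, -0.08 and -0.41.

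Of the apolipoproteins and lipoprotein-handling genes, 2 of 24 passed, both higher and both on chromosome 9, 10230 bases apart, while the list median was -0.02. Among all tested genes 0.575% rose. Apoa4 (chr9:46240696-46243459), a protein of chylomicrons and high-density lipoprotein that the intestine makes in quantity, was at 221, 398, 289.6 and 568 TPM in chow and 3691, 3490.0, 4964 and 2887 TPM in high-fat. No chow library came near the lowest high-fat library (log2 fold change 3.41 with SE 0.28, adjusted p = 0.00072), and the gene passed in all 8 fits that left out 1 library. Apoa1, the main protein of high-density lipoprotein, was at 7867, 11722, 10298 and 10111 TPM against 20046, 17188, 21464 and 16459.6 TPM, without overlap (log2 fold change 0.92 with SE 0.19, adjusted p = 0.04995). It did not pass in any of the 8 fits that left out a library (adjusted p up to 0.167). Apoc3, from the same cluster, and Apob, the backbone of very-low-density lipoprotein, did not pass, with fold changes of 0.08 and 0.37. Fabp2, a fatty acid binding protein best known from the intestine, was the only member to pass of 32 lipid droplet and fatty acid uptake genes, at 67.98, 103, 64.2 and 84.04 TPM against 181, 151, 174 and 171 TPM (log2 fold change 1.097 with SE 0.18, adjusted p = 0.0148), and was lost without chow replicate 4 or high-fat replicate 4 (adjusted p up to 0.054). Fabp2 and Tff3 were also the only 2 of the cell type markers to pass, both from a set of 10 gallbladder and intestinal genes. The sum of that set was 93.2 to 133 TPM in chow and 181 to 279 TPM in high-fat. Most of it was these 2 genes, Fabp2 at a mean of 79.9 against 169 TPM and Tff3 at 2.51 against 36.1 TPM. Of the 3 members tested, only these 2 had a fold change above 0. Of that set Cdx2, Fabp6, Reg1 and Reg3g were at 0 in all 8 libraries, and the part of such cells in the result was not tested. The sum of 7 adipocyte markers did not overlap either, at 659 to 1154 TPM in chow and 1232 to 2739 TPM in high-fat. Nearly all of it was Car3, a carbonic anhydrase, at a mean of 957 against 2137 TPM (adjusted p = 0.09996). The other tested member, Fabp4, was at 6.11 to 11.8 against 7.95 to 23.2 TPM (adjusted p = 0.692). Lep was at 0 in all 8 libraries, and Adipoq was at 0 in the 4 chow libraries and at 0 to 0.921 TPM in high-fat. The part of adipocytes in these lipid gene results was not tested. Fewer cells of a type and less RNA per cell cannot be told apart in bulk tissue.

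Bile acid synthesis had 1 member past the test among 21, a higher one, where 0.575% of all tested genes rose. It was Cyp7a1, the rate-limiting enzyme that converts cholesterol to bile acid, at 4.94, 3.98, 2.29 and 4.71 TPM in chow and 55.6, 29.3, 101 and 19.96 TPM in high-fat (log2 fold change 3.17 with SE 0.42, adjusted p = 0.00588). The chow values were close together and the high-fat values spread over a wide range above them, and the gene passed with any 1 library left out. Cyp8b1, which sets the share of cholic acid, was at 172 to 265 against 288 to 558 TPM without overlap but did not pass (adjusted p = 0.0901). Nr0b2, the repressor SHP that lowers Cyp7a1, was at 86.5 to 236 against 35.1 to 86.03 TPM (log2 fold change -1.06, adjusted p = 0.204). Of 17 bile acid and anion transporters 2 passed. Slc22a7, an organic anion transporter of the sinusoidal membrane, was at 5.44, 2.74, 3.52 and 3.803 TPM against 44.6, 31.5, 12.2 and 52.3 TPM (log2 fold change 2.74 with SE 0.38, adjusted p = 0.00684), and passed with any 1 library left out. Slc10a1, the sodium-dependent importer of bile acids, was at 423, 425, 408 and 415 TPM against 585, 741, 674 and 733 TPM (log2 fold change 0.702 with SE 0.14, adjusted p = 0.044). The chow values were nearly equal and the change small, and of the 8 fits that left out a library it passed only in that without high-fat replicate 1 (adjusted p up to 0.171 in the other fits).

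Glutathione transferases moved the opposite way. Of 22 tested members 7 fell and none rose, where 0.484% of all tested genes fell, and the list median was -0.43. The groups did not overlap in 9 members, all lower, against 5.73% of all genes. Gsta1 (chr9:78230656-78242684), an alpha-class enzyme, was at 36.97, 83.4, 42.4 and 20.5 TPM in chow and 0.857, 0.298, 4.73 and 0.126 TPM in high-fat (log2 fold change -4.39 with SE 0.51, adjusted p = 0.00313). Gsta2 was at 133, 296, 205 and 117 TPM against 21.5, 16.6, 52.1 and 14.2 TPM (log2 fold change -2.89 with SE 0.39, adjusted p = 0.00666). Gsta4, which conjugates the lipid peroxidation product hydroxynonenal, was at 178, 271, 195 and 162 TPM against 61.5, 46.7, 79.5 and 37.7 TPM (log2 fold change -1.85 with SE 0.24, adjusted p = 0.00588). In these 3 genes every chow library was above every high-fat library, high-fat replicate 3 was the highest of its group, and each call held with any 1 library left out. The neighbouring Gm3776 and Gm10639, predicted genes of the same cluster named after their values were seen, also fell, from 24.2 ± 18.2 to 0.639 ± 0.719 TPM and from 9.55 ± 5.03 to 0.512 ± 0.832 TPM (adjusted p = 0.00296 and 0.00557). Gsta3, the most abundant alpha-class gene, did not pass, at 1834, 2059, 1255 and 1683 TPM against 1688, 1967, 2263 and 1913 TPM (adjusted p = 0.763). These 6 alpha-class genes summed to 2177 ± 448 TPM in chow and 2043 ± 264 TPM in high-fat.

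Genes of the mu and pi classes that fell included the most abundant of each class. Gstm1 was at 2330.5, 5301, 4151 and 2620.3 TPM in chow and 1203, 862, 1167 and 604 TPM in high-fat (log2 fold change -1.88 with SE 0.297, adjusted p = 0.013). Gstm3 was at 56.3, 251, 81.3 and 41.96 TPM against 21.1, 14.4, 21.9 and 8.41 TPM (log2 fold change -2.36 with SE 0.48, adjusted p = 0.044), with chow replicate 2 far above the rest. Gstp1 was at 4412, 4901, 5475 and 5691 TPM against 2879, 1110.3, 1787 and 1447 TPM (log2 fold change -1.59 with SE 0.26, adjusted p = 0.0153), and Gstp2, 2300 bases away, was at 595, 824, 979.6 and 894 TPM against 545, 165, 259 and 220.1 TPM (log2 fold change -1.59 with SE 0.32, adjusted p = 0.0402). High-fat replicate 1 was the highest of its group for both pi genes. Summed TPM was 4004 ± 1543 against 1214 ± 329 for 7 mu genes, and 5963 ± 734 against 2128 ± 936 for 3 pi genes (SD, n = 4). Reads of such near-identical genes were divided among copies by estimation, so the split within a class is uncertain and the sums are firmer. Gstt1, Gstk1 and the microsomal Mgst1 did not pass, with fold changes of -0.15, 0.11 and -0.01. The list's 7 calls became 3 without high-fat replicate 2, removal of high-fat replicate 4 left 4, and none remained in the 4 libraries with under 33% of TPM in the 20 highest genes. Among single genes, Gstm1 was lost without high-fat replicate 2 (adjusted p up to 0.0629), Gstp1 without chow replicate 4, high-fat replicate 2 or 4 (0.07), and Gstm3 without chow replicate 3 or high-fat replicate 1, 2 or 4 (0.145). Gstp2 was kept only without chow replicate 1 or high-fat replicate 1 (0.143 at most in the others).

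Many of these transferases are targets of NRF2, the sensor of electrophile stress, and on a separate list of 23 tested NRF2 targets 1 passed. It was lower, where 0.484% of all tested genes fell. The list median was -0.15, 5 of the 23 had a fold change above 0, and in 5 the groups did not overlap, all lower, where 5.73% of all genes did so. Cbr1, a carbonyl reductase, was at 122, 221, 188 and 184 TPM in chow and 73.8, 54.3, 98.4 and 59.95 TPM in high-fat (log2 fold change -1.31 with SE 0.23, adjusted p = 0.021), a call lost without chow replicate 2, 3 or 4 or high-fat replicate 2 or 4 (adjusted p up to 0.0882). Nqo1, the textbook NRF2 target, was at 6.08 to 15.4 against 4.23 to 10.4 TPM (adjusted p = 0.707), Gclc at 146 to 258 against 114 to 178 TPM (adjusted p = 0.45), and Nfe2l2, which encodes NRF2, had a fold change of 0.06. The antioxidant response element core TGACNNNGC was found on either strand in 4 of 21 transferase promoters (19.0%) and in 0 of the 6 that fell and have an entry, against 14.0% of all promoters. That absence covers these letters in this window only.

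Cytochrome P450 enzymes of foreign compounds moved in both directions. Of 41 tested, 5 fell and 2 rose, where 0.484% of all tested genes fell and 0.575% rose, and the list median was 0.05. The groups did not overlap in 8 members that were higher and 6 that were lower, against 2.49% and 5.73% of all genes. Cyp2b10 (chr7:25897620-25926624), the classic target of the receptor CAR, was at 21.98, 8.86, 10.1 and 8.39 TPM in chow and 0.454, 1.39, 0.4797 and 0.411 TPM in high-fat (log2 fold change -2.92 with SE 0.3004, adjusted p = 0.00196). Cyp2c55 was at 4.73, 5.75, 2.74 and 2.28 TPM against 0.146, 0.556, 0.874 and 0.329 TPM (log2 fold change -1.68 with SE 0.26, adjusted p = 0.012). Cyp2c29 was at 1393, 823, 836 and 1015 TPM against 401, 525, 548 and 442 TPM (log2 fold change -1.06 with SE 0.199, adjusted p = 0.0306). Cyp3a11, the main mouse relative of human CYP3A4, was at 3474, 5283, 3906 and 3798 TPM against 780.4, 1063, 1269.7 and 448 TPM (log2 fold change -2.29 with SE 0.29, adjusted p = 0.00557), and Cyp3a25, on the same chromosome 5 cluster, at 824, 786, 829 and 766 TPM against 388, 449, 397 and 371 TPM (log2 fold change -0.999 with SE 0.14, adjusted p = 0.00705). All 9 Cyp3a genes together summed to 5078 ± 793 TPM in chow and 1404 ± 402 TPM in high-fat. The 2 that rose were Cyp2c67, at 198, 156, 150.3 and 160.5 TPM against 330.3, 474, 324 and 455 TPM (log2 fold change 1.23 with SE 0.18, adjusted p = 0.00875), and Cyp2d40, at 58.7, 58.9, 45.3 and 62.6 TPM against 106, 124, 99.2 and 144 TPM (log2 fold change 1.05 with SE 0.17, adjusted p = 0.0158). The Cyp2c genes thus changed in both directions, and 15 of them summed to 3256 ± 408 against 3457 ± 563 TPM. Nr1i3, which encodes CAR, Nr1i2, which encodes PXR, and Por, the electron donor of these enzymes, did not pass, with fold changes of 0.37, -0.56 and -0.01. Cyp2c29 was lost without chow replicate 1, 2 or 4 or high-fat replicate 1, 2 or 4 (adjusted p up to 0.118), and Cyp2d40 without chow replicate 2 or 4 or high-fat replicate 2 or 4 (0.0641). The other 5 passed with any 1 library left out. Of these, Cyp2c55 reached 1 TPM only in chow, and so entered the test through chow alone.

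**Figure D3:**
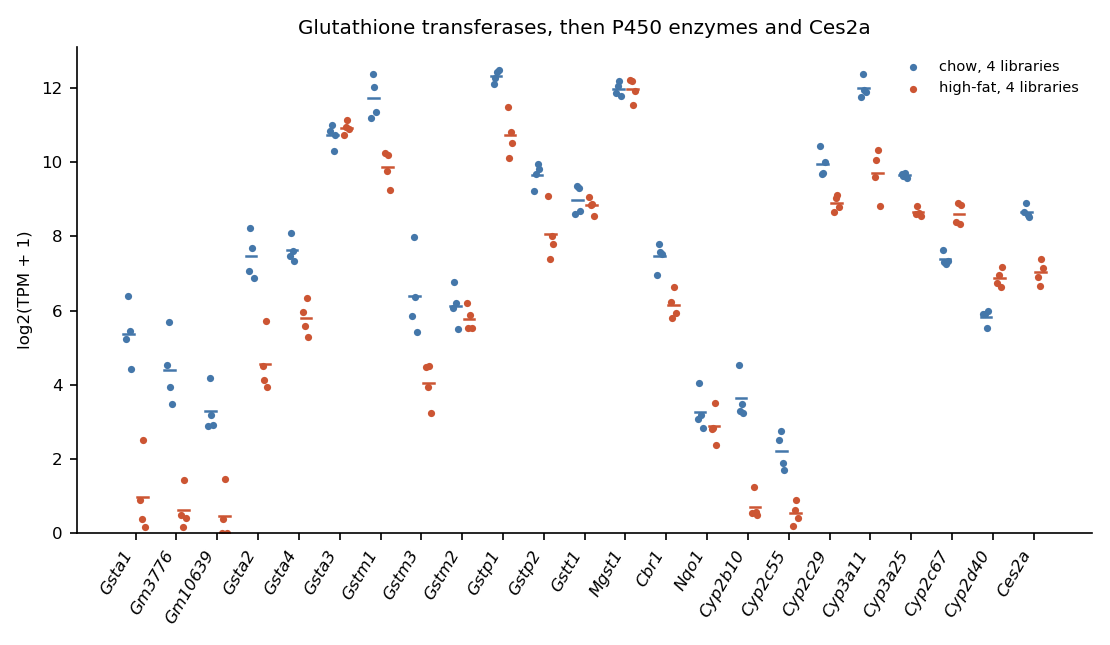
Points are single libraries (blue, 4 chow; orange, 4 high-fat) and short lines their means, as log2(TPM + 1) on the vertical axis, for glutathione transferases, the NRF2 targets Cbr1 and Nqo1, P450 enzymes and Ces2a. Gsta1, Gm3776 and Gm10639 are lower in every high-fat library than in any chow library, with high-fat replicate 3 the highest of its group, while Gsta3 and Mgst1 lie at one level in both groups.

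Among 37 glucuronosyltransferases, sulfotransferases and carboxylesterases 1 fell and 2 rose, where 0.484% of all tested genes fell and 0.575% rose. Ces2a, a carboxylesterase that also cleaves lipid esters, was at 406, 473, 382 and 365 TPM in chow and 118, 100.3, 167 and 141 TPM in high-fat (log2 fold change -1.64 with SE 0.18, adjusted p = 0.00296), and passed with any 1 library left out. Sult1b1 was at 10.1, 14.3, 7.76 and 7.52 TPM against 24.8, 29.4, 32.6 and 23.5 TPM (log2 fold change 1.42 with SE 0.22, adjusted p = 0.0121), and Sult2a8 at 512, 343, 368 and 434 TPM against 618, 968, 783 and 969 TPM (log2 fold change 1.003 with SE 0.196, adjusted p = 0.0379). Both sulfotransferases were higher in every high-fat library. Sult1b1 was lost without chow replicate 4 or high-fat replicate 2 (adjusted p up to 0.0556), and Sult2a8 was kept only without chow replicate 1 or high-fat replicate 1 (0.136 at most in the others). Of 21 retinoid genes 1 fell and 1 rose, and both passed with any 1 library left out. Cyp26a1, which degrades retinoic acid and is induced by it, was at 7.02, 10.7, 5.08 and 5.66 TPM against 0.933, 1.27, 1.31 and 0.878 TPM (log2 fold change -1.91 with SE 0.23, adjusted p = 0.00333). Rarres1, named as a retinoic acid responder, was at 35.8, 28.01, 27.8 and 26.9 TPM against 133, 124, 68.01 and 177 TPM (log2 fold change 1.98 with SE 0.26, adjusted p = 0.00557).

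Acute phase proteins, which the liver secretes on inflammation, rose in 3 of 29 members and fell in none, with a list median of 0.10. Among all tested genes 0.575% rose. Saa1 (chr7:46740497-46742980), serum amyloid A, was at 53.5, 54.6, 16.05 and 30.1 TPM in chow and 255, 152, 306 and 620.0 TPM in high-fat (log2 fold change 3.05 with SE 0.44, adjusted p = 0.00855). Saa2, its near copy 8810 bases away, was at 16.5, 19.002, 8.05 and 9.08 TPM against 46.5, 53.7, 104 and 113 TPM (log2 fold change 2.48 with SE 0.34, adjusted p = 0.00667). Both passed with any 1 library left out, and their sum was 51.7 ± 24.0 against 413 ± 229 TPM. Lcn2, lipocalin 2, an iron-withholding protein, was at 5.55, 9.21, 5.11 and 7.24 TPM against 11.2, 34.5, 23.6 and 33.8 TPM (log2 fold change 1.697 with SE 0.33, adjusted p = 0.0349), a call kept only without high-fat replicate 1 (adjusted p up to 0.118 in the others). Other classic members did not pass, among them Saa3 at 8.38 to 16.9 against 10.1 to 10.9 TPM (adjusted p = 0.948), Orm1 at 868 to 1554 against 957 to 1285 TPM (adjusted p = 0.767) and Hp, haptoglobin, at 3130.1 to 3753 against 3879.6 to 5018 TPM (adjusted p = 0.297). Serpina3n, a secreted protease inhibitor, was the 1 of 22 serpins to pass, at 177, 185, 134 and 198 TPM against 299, 512, 613 and 423 TPM (log2 fold change 1.37 with SE 0.23, adjusted p = 0.0153), and was lost without high-fat replicate 2 (adjusted p = 0.067). F11, coagulation factor XI, was the 1 of 38 complement and coagulation genes to pass, at 18.6, 11.1, 10.8 and 16.4 TPM against 43.9, 42.7, 64.5 and 73.4 TPM (log2 fold change 1.91 with SE 0.24, adjusted p = 0.00557), with any 1 library left out too.

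Of 36 interferon response genes 2 passed, both higher, where 0.575% of all tested genes rose. In 35 the fold change was above 0, with a median of 0.49, where 4541 of all 10960 genes were above 0. Psmb9, an immunoproteasome subunit, was at 14.6, 19.4, 13.2 and 15.6 TPM in chow and 43.4, 26.2, 25.7 and 36.5 TPM in high-fat (log2 fold change 1.003 with SE 0.21, adjusted p = 0.049997). Ifi27l2b was at 5.49, 8.97, 3.89 and 5.61 TPM against 20.1, 11.3, 23.4 and 13.2 TPM (log2 fold change 1.36 with SE 0.28, adjusted p = 0.044). Each held in 1 of the 8 fits that left out a library, Psmb9 without high-fat replicate 3 and Ifi27l2b without chow replicate 2 (adjusted p up to 0.167 and 0.147 in the others). Beside this, 11 of 12 Kupffer cell markers had fold changes above 0 and none passed, with sums of 193 to 462 TPM in chow and 268 to 504 TPM in high-fat. T and NK cell markers summed to 5.90 to 9.29 against 9.63 to 10.9 TPM. The 9 neutrophil markers summed to 2.90 to 6.61 against 4.15 to 7.44 TPM. Of these, Ly6g and Mpo were at 0 throughout, and the 3 tested had fold changes above 0 without passing. The part of these cells in the result was not tested. None of 16 cytokine, chemokine and adhesion genes, 21 collagen and fibrosis genes or 6 class II genes passed.

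**Figure D4:**
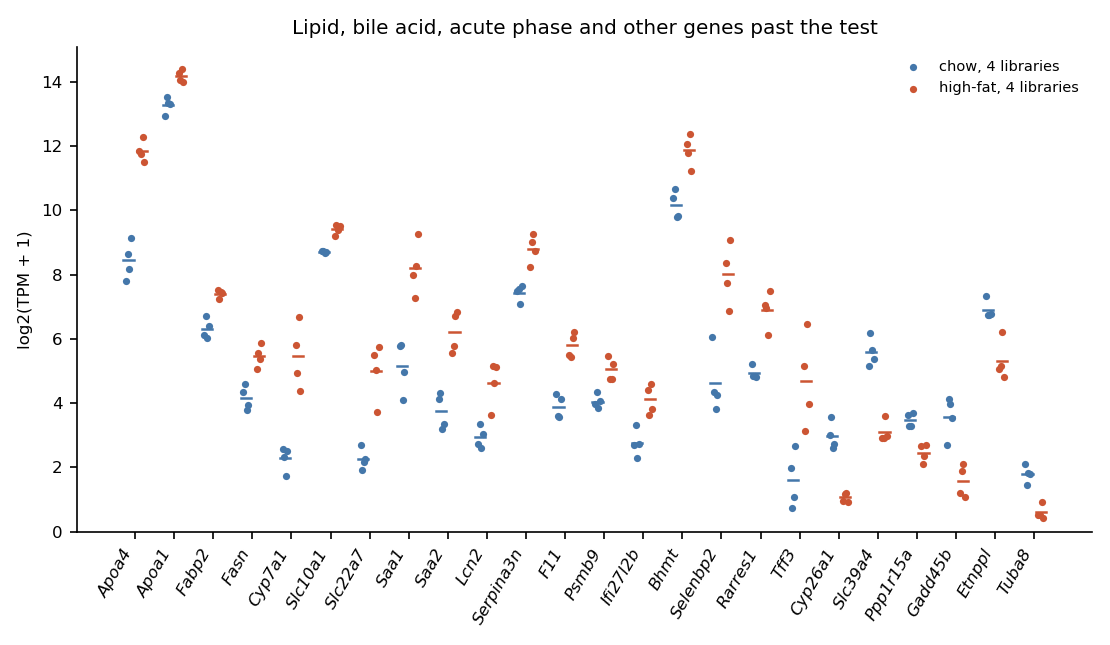
Points are single libraries (blue, 4 chow; orange, 4 high-fat) and short lines their means, as log2(TPM + 1) on the vertical axis, for genes past the test in the lipid, bile acid, acute phase and other lists. The groups do not overlap in any of them, and high-fat values spread widely for Cyp7a1, Saa1, Selenbp2 and Tff3.

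Of 26 zinc, iron and copper handling genes 1 rose and 1 fell, where 0.575% of all tested genes rose and 0.484% fell. Of 25 methionine cycle and one-carbon enzymes 1 rose, while none of 46 genes of amino acid breakdown and the urea cycle passed. The metal gene that rose was Lcn2, given above. Slc39a4 (ZIP4, chr15:76612383-76617384), the importer of dietary zinc, fell, and was at 34.4, 71.97, 49.1 and 40.4 TPM in chow and 6.57, 6.48, 11.1 and 6.94 TPM in high-fat (log2 fold change -2.49 with SE 0.25, adjusted p = 0.00196), and passed with any 1 library left out. Hamp, hepcidin, the hormone that limits iron uptake, lay just outside the threshold, at 2157, 1320.3, 3058 and 2663 TPM against 369, 568, 989 and 1074 TPM without overlap (log2 fold change -1.67 with SE 0.35, adjusted p = 0.0508). Bhmt, which remakes methionine from homocysteine with betaine, was at 1338, 1639.8, 888 and 898 TPM against 4284, 3541, 5372 and 2399.6 TPM (log2 fold change 1.6999 with SE 0.28, adjusted p = 0.0149), and was lost without chow replicate 4 or high-fat replicate 2 (adjusted p up to 0.0674). Selenbp2, a selenium-binding protein, was at 65.8, 19.2, 13.1 and 18.1 TPM against 330.5, 214, 116 and 536 TPM (log2 fold change 3.399 with SE 0.51, adjusted p = 0.0108), with chow replicate 1 above the other chow libraries, and passed with any 1 library left out. Selenbp2 was also the only 1 of 29 sex-biased and pheromone-binding genes to pass. That list's median was 0.87, with high-fat replicate 3 far below the others for the major urinary proteins.

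Several stress and structural genes passed with less support. Gadd45b, a damage- and stress-induced gene, was at 5.44, 16.3, 14.7 and 10.6 TPM in chow and 1.31, 2.72, 3.25 and 1.11 TPM in high-fat (log2 fold change -2.01 with SE 0.34, adjusted p = 0.0162). Ppp1r15a, which restarts translation in the integrated stress response, was at 11.4, 8.82, 8.82 and 11.98 TPM against 5.297, 3.32, 4.13 and 5.49 TPM (log2 fold change -1.02 with SE 0.203, adjusted p = 0.0402). Etnppl, which breaks down phosphoethanolamine, was at 159, 106, 105 and 107 TPM against 32.3, 34.5, 72.8 and 26.9 TPM (log2 fold change -1.58 with SE 0.28, adjusted p = 0.0229). These 3 genes fell and were lower in every high-fat library. Tuba8, a tubulin, was at 3.32, 1.73, 2.51 and 2.44 TPM against 0.437, 0.431, 0.9101 and 0.345 TPM (log2 fold change -1.19 with SE 0.196, adjusted p = 0.0155). It reached 1 TPM only in chow, and so entered the test through chow alone. Tff3, a mucosal trefoil peptide, was at 2.97, 0.648, 1.11 and 5.2999 TPM against 34.9, 7.71, 87.2 and 14.5 TPM (log2 fold change 3.07 with SE 0.64, adjusted p = 0.0479), so it rose, with high-fat replicate 3 highest. Beside Tff3, the bile duct markers Krt19 and Epcam were at 0.433 to 2.15 against 0.209 to 1.004 TPM and 1.05 to 2.896 against 0.955 to 1.704 TPM, and neither passed. The calls were lost at adjusted p up to 0.0654 for Gadd45b (without chow replicate 2 or 4 or high-fat replicate 2 or 4) and 0.0718 for Tuba8 (without chow replicate 4 or high-fat replicate 2 or 4). Etnppl was kept only without chow replicate 3 or high-fat replicate 3 (0.0894 at most in the others), Ppp1r15a only without high-fat replicate 1 (0.167) and Tff3 only without high-fat replicate 2 (0.154).

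Some of the largest changes lay outside the gene lists, which hold 56 of the 116 genes that passed. Cenpm, a centromere protein, was at 0.546, 0.517, 0.209 and 0.165 TPM in chow and 5.15, 3.33, 6.79 and 5.68 TPM in high-fat (log2 fold change 2.18 with SE 0.22, adjusted p = 0.00196), while none of 8 tested cell cycle genes passed. Slc23a1, a vitamin C importer, was at 11.3, 12.9, 5.2998 and 6.87 TPM against 29.1, 30.4, 32.2 and 42.05 TPM (log2 fold change 1.83 with SE 0.26, adjusted p = 0.00754). Nup62cl, related to a nuclear pore protein, was at 2.56, 4.302, 2.22 and 3.12 TPM against 0.195, 0.09001, 0.0438 and 0.213 TPM (log2 fold change -1.81 with SE 0.19, adjusted p = 0.00196). Spaca6, known from sperm and egg fusion, was at 9.51, 7.697, 12.1 and 11.2 TPM against 2.24, 2.28, 3.68 and 1.83 TPM (log2 fold change -1.67 with SE 0.22, adjusted p = 0.00557). Each of these 4 passed with any 1 library left out. Cenpm reached 1 TPM only in high-fat libraries and Nup62cl only in chow, so each entered the test through 1 group alone. For these 2 genes, near the filter limit, the fits with a library left out add little support. Hdc, histidine decarboxylase, which makes histamine, was at 21.6, 9.46, 23.4 and 17.8 TPM against 2.04, 8.05, 2.17 and 5.75 TPM (log2 fold change -1.88 with SE 0.38, adjusted p = 0.044). Acmsd, which diverts tryptophan breakdown from NAD synthesis, was at 25.2, 19.5, 14.2 and 12.7 TPM against 3.76, 4.704, 9.16 and 3.14 TPM (log2 fold change -1.65 with SE 0.301, adjusted p = 0.0266). Cyp2j9, a cytochrome P450 enzyme, was at 10.9, 9.81, 19.02 and 12.8 TPM against 3.595, 7.64, 2.62 and 3.92 TPM (log2 fold change -1.41 with SE 0.29, adjusted p = 0.044). These 3 genes fell, but Hdc was kept only without chow replicate 2 or high-fat replicate 2 (adjusted p up to 0.146 in the others), Acmsd only without chow replicate 3 or high-fat replicate 3 (0.0926), and Cyp2j9 only without high-fat replicate 2 (0.146).

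Of the 38 gene lists 14 had no member past the test, among them fatty acid oxidation (0 of 42, median 0.12), ketone body metabolism (0 of 9, median 0.07) and glucose production, glycolysis and glycogen (0 of 37, median -0.08). Acaa1b and Cyp4a14, targets of PPAR alpha, had fold changes of -0.29 and -0.83. Pck1, the gate of gluconeogenesis, was at 2107, 2552, 2098 and 2466 TPM in chow and 322, 569.6, 1585 and 876 TPM in high-fat, without overlap but short of the threshold (log2 fold change -1.69 with SE 0.38, adjusted p = 0.0692). Genes often followed in fatty liver were named after their values were seen. Cd36, the fatty acid translocase, was at 33.7, 16.4, 16.1 and 22.8 TPM against 21.7, 41.5, 45.99 and 47.8 TPM with overlap (adjusted p = 0.3). Scd1, the main desaturase, was at 2867, 2373, 1123 and 1214 TPM against 716, 1149.6, 907 and 771 TPM (log2 fold change -1.002, adjusted p = 0.193). The lipid droplet genes Plin2 and Cidec were at 558 ± 139 against 381 ± 78.6 TPM (SD, n = 4) and 3.83 ± 2.07 against 6.82 ± 4.19 TPM (adjusted p = 0.371 and 0.582). Fgf21, a fasting hormone, was at 6.38 ± 1.56 against 12.6 ± 6.27 TPM (adjusted p = 0.331). None of these passed, and a p above the threshold does not show that they were alike. All 13 mitochondrially encoded subunits had fold changes below 0 with a median of -0.37, and none passed (mt-Co1 -0.33, mt-Cytb -0.37), beside the mitochondrial share given above. Nuclear respiratory chain subunits had a median of -0.08 (0 of 33).

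**Figure D5:**
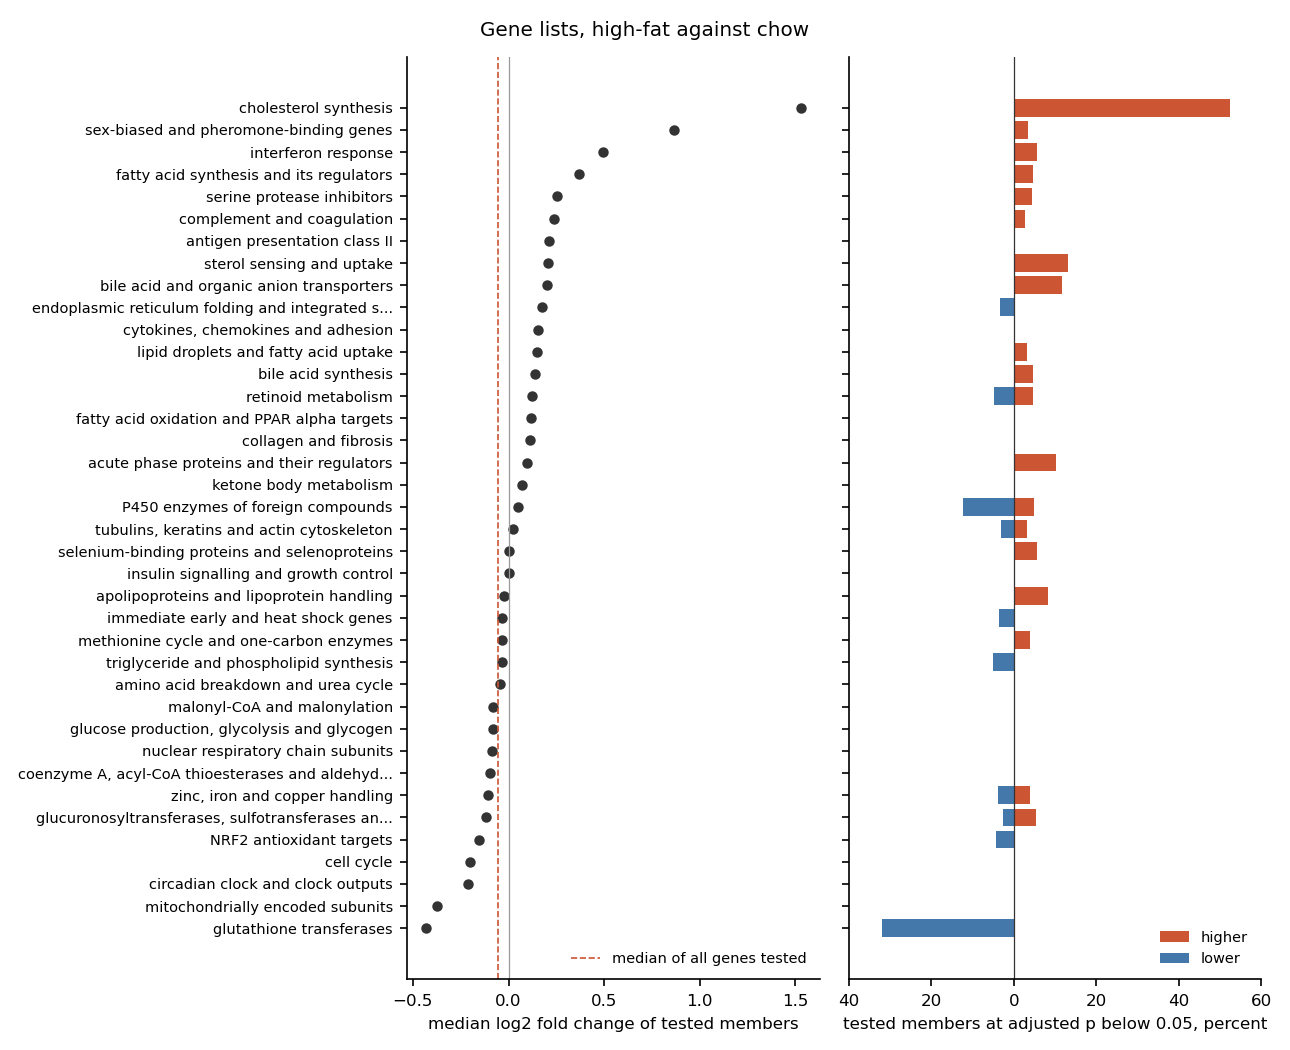
For each of 38 gene lists, the left panel gives the median log2 fold change of its tested members (dashed line, all genes tested) and the right panel the percent of tested members past an adjusted p of 0.05, higher to the right and lower to the left. Cholesterol synthesis lies at the top with a median of 1.53 and glutathione transferases at the bottom with -0.43.

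The 2 alternating regimens give these genes a further reading, side by side and untested here. Apoa4 ranged over 388 to 822 TPM in the 4 chow-alternating and 1505 to 7053 TPM in the 4 ketogenic-alternating libraries. Fabp2 ranged over 80.3 to 101 and 205 to 320.1 TPM, Cyp2b10 over 6.18 to 12.3 and 0.0396 to 0.635 TPM, and Cyp2c29 over 1090.1 to 1789.8 and 240.2 to 559 TPM. The ranges of Gsta1, 2.78 to 4.92 and 0.872 to 20.2 TPM, and of Mvd, 9.83 to 32.3 and 17.7 to 56.2 TPM, overlapped. Other genes lay near the high-fat level in both regimens. Cyp26a1 ranged over 0.962 to 2.06 and 0.627 to 1.88 TPM, against 0.878 to 1.31 TPM in high-fat and 5.08 to 10.7 TPM in chow. Spaca6 ranged over 1.28 to 3.78 and 0.881 to 5.42 TPM, against 1.83 to 3.68 TPM in high-fat and 7.70 to 12.1 TPM in chow.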

How the data were processed

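Liver RNA of 16 libraries was sequenced, and the 4 chow and 4 high-fat libraries were used. Per the labels' design text, the authors aligned reads to mm10 with HISAT2, estimated expression as FPKM with RSEM 1.1.17 on an Ensembl annotation, and compared groups with edgeR 3.14.0. The deposited gene and transcript values are TPM, since every column sums to 1000000 by the files themselves. No counts were used, and no depth or counting interval is given. Symbols and positions came from GENCODE vM21 on GRCm38 for 22582 identifiers, and promoters from RefSeq (GRCm38.p6).

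Values were taken as log2(TPM + 1), genes at 1 TPM or more in at least 4 of 8 libraries were kept (3 of 7 with a library left out), and the fit used limma 3.58.1 (R 4.3.3) with its intensity trend, no covariates and Benjamini-Hochberg adjustment. A fit to simulated log values was checked first. The test planned for normalized values was applied to TPM. Library composition was compared by exact permutation tests over 70 splits.

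The members, 38 gene lists and 13 marker sets were chosen with earlier results of these data known. Named were the called genes with the largest fold change, at most 20 in each direction, with a mean of at least 1 TPM (no predicted genes or receptor segments), every list member that passed, 2 abundant members of each list without one, and the malonylation genes. Others were named after their values were seen, and some genes are not reported here. Alternatives were 2 other pseudocounts, other filters, scalings, weights and designs, and leaving out libraries.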

Additional observations from a re-analysis of the deposited data

Results flagged for a closer look

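In 474 groups of 4 libraries (234 genes and 3 measures of library composition, chow and high-fat apart), the highest or lowest library was checked for its distance from the rest, for genes on the log2(TPM + 1) scale. In 26 groups, 1 library stood apart by more than Dixon's 95% limit for its gap over the group's range, which chance gives in about 1 in 20 groups. Cyp2b10 was at 1.39 TPM in high-fat replicate 2, where the other high-fat libraries were between 0.411 and 0.480 TPM. Slc39a4 was at 11.1 TPM in high-fat replicate 3, against 6.48 to 6.94 TPM in the others. Etnppl was at 159 TPM in chow replicate 1, against 105 to 107 TPM in the others. Rarres1 was at 35.8 TPM in chow replicate 1, against 26.9 to 28.0 TPM in the others. Cyp2b10, Slc39a4 and Rarres1 passed with any 1 library left out. In chow, further libraries that stood apart were replicate 1 for Acaca (13.96 TPM) and Cox4i1 (779.7 TPM), replicate 2 for Praf2 (10.56 TPM) and Ebp (190.2 TPM), replicate 3 for Aldh2 (764.1 TPM), Hsd17b10 (210.5 TPM) and Plekhb1 (42.07 TPM), and replicate 4 for Fgf21 (8.702 TPM). High-fat replicate 3 stood apart for 6 more genes, Cdkn1a (13.67 TPM), Myl6b (0.8357 TPM), Cyp7b1 (92.14 TPM), Tat (716.8 TPM), Cyp4a12a (71.05 TPM) and Gnmt (3681 TPM). High-fat replicate 1 did so for mt-Cytb (15171 TPM), Gimap9 (7.129 TPM), Plin2 (264.7 TPM), Sc5d (98.19 TPM) and Epcam (0.9546 TPM). High-fat replicate 2 did so for Gm28040 (0.9289 TPM, where the others are listed at 0), and high-fat replicate 4 for Treh (1.605 TPM) and Nr0b2 (35.12 TPM).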

How the results depend on the processing

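The 95 calls were within 1.5 times of the main count with a pseudocount of 0.1 TPM (100), a filter at 5 TPM (73), quantile normalization (107), median scaling (110), rescaling without mitochondrial and top 20 genes (123), all 16 libraries (135) and no trend (90). They became 61 with a pseudocount of 5 TPM, 40 with no filter on low values, 236 with array weights (weights from 0.423 for high-fat replicate 1 to 2.997 for chow replicate 4) and 38 to 127 with 1 library left out. Fitting the 4 libraries with under 33% of TPM in the 20 highest genes, an alternative chosen after seeing the data, gave 26. Replicate numbers did not pair the samples: deviations of same-numbered libraries correlated at -0.60, -0.02, -0.29 and 0.21, and 1 of 4 correlated best with its own number. With the replicate block 43 genes were called. Cholesterol synthesis calls (11) ranged from 3 to 14 with 1 library left out, and were 3 with no filter and 4 in the 4-library fit. Glutathione transferase calls (7) ranged from 3 to 7, and were 3 with no filter and 0 in the 4-library fit. Of 11295 genes tested in the 4-library fit, limma called 26, and 1112 had an unadjusted p below 0.05. A share of about 0.05 would reach that limit if no gene differed. With 1 library left out, the difference in the share of the 20 highest genes (-1.45 percentage points) ranged from -2.94 to 0.34, changing sign without chow replicate 3. The mitochondrial share difference (-3.47) ranged from -4.54 to -1.80, with an exact permutation p = 0.0286, the smallest possible, without chow replicate 1. The number of genes at 1 TPM or more (29 higher) ranged from -130 to 137, with -52 without chow replicate 3. The cause was not tested. Over 4640 values of 234 named genes under the alternatives no passed gene reversed, 1553 stayed past the threshold and 742 did not, and 72 values of other genes came past it. A further 40 values are missing because the gene was not tested under that alternative. TPM gives no depth, so the counting error of low genes is unknown.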

Other observations

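Further genes passed that no list holds, and were chosen here after their values were seen. Gulo, the last enzyme of vitamin C synthesis in mice, was at 219.9, 173, 134 and 161 TPM in chow and 318, 311, 399 and 368 TPM in high-fat (log2 fold change 1.03 with SE 0.18, adjusted p = 0.0204). Hsd17b10, a mitochondrial enzyme of isoleucine and short-chain fatty acid breakdown, was at 184, 182, 211 and 179 TPM against 434, 374, 331 and 360.1 TPM (log2 fold change 0.98 with SE 0.15, adjusted p = 0.0109). Csrp3, a muscle LIM protein, was at 28.5, 49.3, 31.9 and 34.7 TPM against 114, 106, 84.9 and 87.4 TPM (log2 fold change 1.44 with SE 0.196, adjusted p = 0.00667) and passed with any 1 library left out. Hsd17b10 was lost without chow replicate 4 (adjusted p = 0.0536). Gulo was lost without chow replicate 2, 3 or 4 or high-fat replicate 2 or 4 (adjusted p up to 0.0951).

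Genes that passed were in places neighbours. Within 200000 bases of each other lay 12 adjacent pairs of passed genes, holding 21 genes, and 11 pairs moved in the same direction. Most of these pairs are copies within 1 family (Gsta, Gstm, Gstp, Cyp3a and Saa genes), whose reads were divided by estimation, so they are not independent. The share of such pairs among all tested genes was not counted, and a shared control of neighbours was not tested. Mvk and Mmab, which makes the cobalamin cofactor of methylmalonyl-CoA mutase, start 209 bases apart on chromosome 5. Mmab was at 11.5, 10.6, 5.82 and 7.18 TPM in chow and 18.2, 24.1, 25.1 and 23.2 TPM in high-fat (log2 fold change 1.31 with SE 0.22, adjusted p = 0.0194), a call lost without chow replicate 4 or high-fat replicate 2 or 4 (adjusted p up to 0.0882).

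Transcript estimates added little that held across libraries. Of 115 passed genes in the transcript values, 68 had 1 transcript at 1 TPM or more and 47 had several, and the leading transcript differed between groups in 6: Arsg, Dhcr7, Fdps, Lss, Slc25a51 and Tmem141. For Dhcr7, transcript ENSMUST00000073878 came to lead in high-fat, but its share in single libraries was 11.4, 0, 0 and 61.2% in chow and 0, 72.0, 92.1 and 26.1% in high-fat, so the groups overlapped.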
